A study of Mus musculus with 6 samples.

Results

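The genes described here encode the subunits of the mitochondrial respiratory chain and of ATP synthase, from the nuclear and the mitochondrial genome. They were taken by symbol from a gene count table of mouse cornea: symbols beginning with Nduf and a letter a, b, c, s or v before a digit, with Uqcr, with Cox and a digit from 4 to 8, with Atp5, or with mt-Nd, mt-Co, mt-Cytb or mt-Atp, without rows marked as pseudogenes. This rule gave 100 of the 35673 genes in the table, 87 nuclear and 13 mitochondrial. Of these, 97 passed the filter on low counts, 84 nuclear and 13 mitochondrial. The other 3 were Cox7b2 and Ndufa11b, which had no count in any library, and Ndufb11b, which had at most 2 counts in any library.

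Corneal RNA was sequenced in 6 libraries, 3 titled Control and 3 titled Cationorm, a cationic oil-in-water emulsion used as an eye drop. The mice were male C57BL/6J animals of 6 to 8 weeks. Per the labels, the model was a dry eye of lens wearers, in which the preservative benzalkonium chloride at 0.1% (5 µL per eye) was combined with 6 h of lens wear a day, and eyes then received 5 µL drops of saline, hyaluronic acid or Cationorm for 14 days. Every library, Control included, carries the model's tag, CLDE, and the treatment entry wild-type, so the labels leave unsettled whether Control eyes went through the model or received any drop. They also do not say whether the 3 libraries of a group came from separate animals, and the p-values below then measure only the spread between these libraries, which may be technical.

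The respiratory chain passes electrons from NADH and succinate to oxygen. Complexes I, III and IV pump protons across the inner mitochondrial membrane as they do so, and ATP synthase uses the resulting gradient to make ATP. Complex II is encoded in the nucleus alone. The other complexes combine nuclear subunits, made in the cytosol and imported, with subunits translated inside the organelle from mitochondrial DNA, which is transcribed as long precursors from both strands and then cut into single RNAs. Several subunits of complex IV exist as a widespread form and a form enriched in heart and skeletal muscle. In the cornea, the endothelium is known for a high mitochondrial content, which feeds the ion pumps that keep the stroma clear.

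Promoter sequence is shown for the 2 gene sets in which copies of a single subunit are compared below, the ATP synthase subunit c genes and the muscle and widespread forms of complex IV. Each run is 100 bases of the sense strand, ending before the earliest start that RefSeq or GENCODE gives the gene, from RefSeq promoters of GRCm38.p6, an older build than the GRCm39 named in the submitters' processing notes. Capitals mark a match to one of the motifs searched. The 3 subunit c genes encode the same mature protein behind different import sequences, and their upstream runs hold no match to a motif searched.
Atp5mc1, chr11:96075671-96075770, - strand: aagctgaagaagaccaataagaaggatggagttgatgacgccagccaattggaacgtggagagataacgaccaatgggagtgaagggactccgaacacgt
Atp5mc2, chr15:102671128-102671227, - strand: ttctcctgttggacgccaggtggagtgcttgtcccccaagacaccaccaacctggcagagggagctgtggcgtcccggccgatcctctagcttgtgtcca
Atp5mc3, chr2:73911327-73911426, - strand: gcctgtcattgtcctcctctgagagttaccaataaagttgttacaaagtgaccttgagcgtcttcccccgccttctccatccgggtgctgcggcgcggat
Atp5mc2 has an NRF1 match closer to its start site, 42 bases upstream, which is given here in 30 bases.
Atp5mc2, chr15:102671070-102671099, - strand: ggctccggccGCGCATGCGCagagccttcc
The muscle forms Cox7a1 and Cox8b are set beside their widespread partners Cox7a2 and Cox8a. The upstream run of Cox8b holds an E-box of the CAGCTG type, the kind bound by muscle regulatory factors. A promoter of Cox6a2 was not analysed here.
Cox7a1, chr7:30184044-30184143, + strand: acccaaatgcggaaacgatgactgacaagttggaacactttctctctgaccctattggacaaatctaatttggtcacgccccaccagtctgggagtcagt
Cox7a2, chr9:79759879-79759978, - strand: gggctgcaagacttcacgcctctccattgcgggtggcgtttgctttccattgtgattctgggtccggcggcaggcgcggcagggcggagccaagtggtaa
Cox8b, chr7:140900447-140900546, - strand: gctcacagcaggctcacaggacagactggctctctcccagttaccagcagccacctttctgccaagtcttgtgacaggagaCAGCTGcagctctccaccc
Cox8a, chr19:7217617-7217716, - strand: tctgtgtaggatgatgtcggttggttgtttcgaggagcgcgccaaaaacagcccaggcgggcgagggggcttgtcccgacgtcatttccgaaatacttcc

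Windows from 250 bases before to 50 bases after the start were matched for 66 of the 87 nuclear genes, 13 of them through an older symbol. Both strands were searched. NRF1, a factor known for binding promoters of respiratory chain genes, had a match in 15 of the 66 (22.7%), its motif being the 10 bases in capitals in Atp5mc2 with any base at position 6. The same motif was in 7.17% of 17491 protein-coding promoters, and in 12.97% of the 3393 whose gene had a mean of at least 50 CPM (counts scaled to library size) in these libraries. YY1 (AAGATGGCG) matched in 7 of the 66 (10.6%), against 2.14% and 3.92%. The ETS core (CCGGAAG), which GABPA binds, matched in 14 (21.2%), against 12.9% and 19.6%. At least 1 of the 3 motifs was present in 31 windows (47.0%), against 19.96% and 32.5%. The E-box was in 6 (9.09%), against 17.4% and 17.9%. A loose MEF2-like pattern, with any base allowed at its 4 central positions, was in 1, Cox5b (1.52%, against 4.01% and 3.42%). The Cox5b match has a C at the first of these positions and is not called a MEF2 site here. A CREB site (TGACGTCA) was in 4 (6.06%), against 2.54% and 3.68%. The letters TATAAA, those of a TATA box, were in 7 windows (10.6%). This share was lower than the 14.8% of all protein-coding promoters and higher than the 8.75% of those at 50 CPM or above. The matches, on either strand, began between 235 bases before the start (Ndufb7) and 4 bases after it (Cox8b). No position was required, so they are not called TATA boxes here. Atp5mc3 had its NRF1 match after the start site, and Cox8a had ETS matches at and after it. These matches are letters in a window and say nothing about binding.

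Library depth ran from 32486043 to 39193311 counts. Krt12, the keratin of corneal epithelium, was between 8350 and 9075 CPM in every library, and 8 corneal epithelial markers together held 5.73% to 6.18% of the counts. Single markers were less even than this sum. Krt14 ran from 673 CPM in Control 3 to 1790 CPM in Control 2. Clu and Aldh3a1 were higher in Cationorm without overlap (log2 fold changes 0.50 and 0.13), where 8.73% of all genes were. Of the 8, 4 were above 0 and 4 below, and none was called. Neighbouring tissues were present in unequal amounts. Markers of photoreceptors held 0.213% to 0.846% of the counts, markers of skeletal muscle 0.0168% to 0.308% and markers of the lens 0.0191% to 0.608%, and the libraries that were high or low differed from tissue to tissue. Among 18 muscle markers, Tnnc2 was at or near 0 in every library, and all 15 photoreceptor markers were detected in each. Pigment cell markers held 0.0498%, 0.0418% and 0.106% of the counts in Control, against 0.142%, 0.116% and 0.118% in Cationorm. All 8 of them were above 0 between the groups (median log2 fold change 0.92), and none was called. Of the 8, 7 had an unadjusted edgeR p under 0.05, where 5.16% of all genes were higher at that level. The groups did not overlap for 5, where 8.73% of all genes were higher without overlap.

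No respiratory chain gene passed the test between Cationorm and Control. In edgeR's quasi-likelihood test with Benjamini-Hochberg adjustment over 18804 genes, 0 of the 97 tested members were called, where 0% of all genes tested were called in either direction. The smallest adjusted p among the members was 0.550. At an unadjusted p under 0.05 there were 4 members higher in Cationorm, Cox6b2, Ndufa10, Atp5f1a and mt-Co1, against 5.16% of all genes. At the same level 1 member was lower, mt-Atp8, against 3.57% of all genes. DESeq2 called 64 of 32423 genes (0.197%), none of them a member. In bulk tissue, fewer cells of a type and less RNA per cell cannot be told apart, and this holds for every value below.

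Most subunits were measured closely enough to bound their difference. The 95% interval of the log2 fold change lay within 1.5-fold either way for 84 of the 97 members (86.6%), for 73 of 84 nuclear and 11 of 13 mitochondrial genes. Of all genes tested 53.0% had an interval that narrow, and of the 12057 genes with a mean of at least 5 CPM 79.4% did. The median log2 fold change, Cationorm over Control, was -0.01 for nuclear and -0.01 for mitochondrial members, against 0.01 for all genes tested. Values were above 0 for 42 members and below 0 for 55. Groups did not overlap for 5 members that were higher in Cationorm (8.73% of all genes) and 2 that were lower (6.09%). The former were Cox6b2, Ndufa10, Atp5f1a, Ndufs4 and Ndufv3, and the latter mt-Atp8 and Ndufb2. Ndufs4, Ndufv3 and Ndufb2 were singled out after their values were seen. The summed pigment cell share also did not overlap, with the Cationorm libraries higher, and its part in these differences was not tested.

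**Figure D1:**
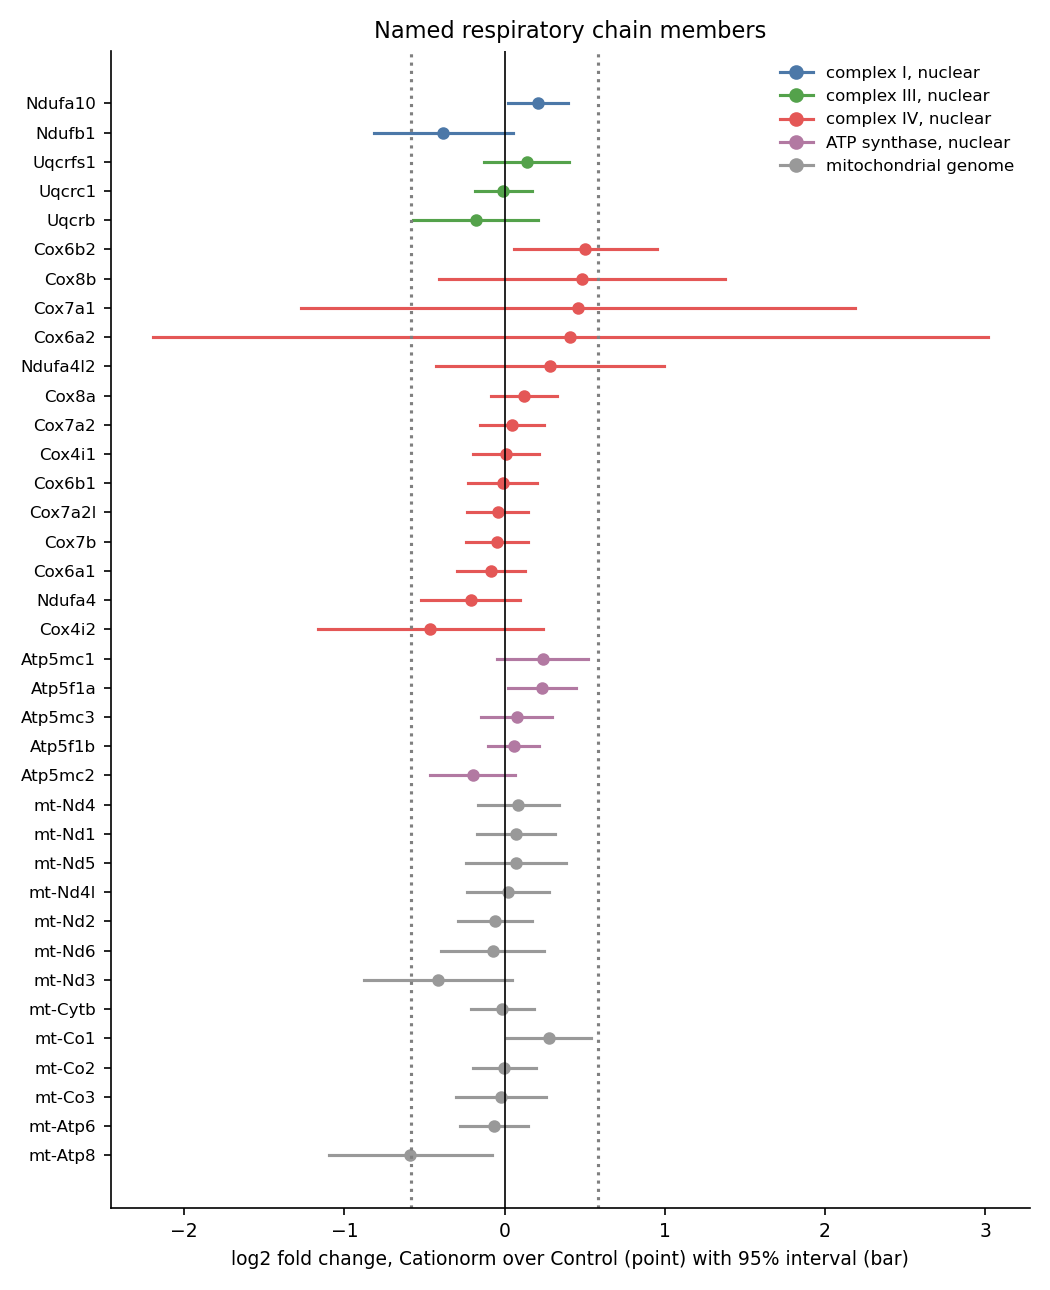
Log2 fold change of Cationorm over Control (horizontal axis) for the named members, grouped by complex and genome (vertical axis). Points are edgeR estimates, bars are 95% intervals and dotted lines mark 1.5-fold; mt-Atp8, at -0.59, lies on the lower line, and the widest interval belongs to Cox6a2.

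Complex I, the NADH dehydrogenase that forms the entry point of the chain, had 39 tested nuclear members, with 14 above 0, 25 below 0 and a median log2 fold change of -0.01. Its 7 nuclear core subunits, which carry the flavin and the iron-sulphur clusters, all had intervals within 1.5-fold.

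Ndufa10, an accessory subunit of the membrane arm, was at 78.2, 70.8 and 77.0 CPM across Control 1 to 3, against 81.3, 95.2 and 84.7 CPM across Cationorm 1 to 3. All 3 Cationorm libraries were above all 3 Control libraries, with a log2 fold change of 0.21 ± 0.08 (SE, n = 3 each), and the difference did not pass the adjusted test (adjusted p = 0.550). Ndufb1, another accessory subunit, had the smallest p of the complex in the other direction. It was at 22.7, 31.9 and 20.2 CPM in Control, against 17.5, 22.1 and 17.8 CPM in Cationorm, so that Control 2 stood above the other libraries and the groups overlapped (log2 fold change -0.38 ± 0.18, adjusted p = 0.550, and -0.19 without Control 2). Ndufv3 and Ndufs4, accessory subunits near the NADH-oxidising arm, differed by 0.17 ± 0.08 and 0.12 ± 0.08 on the log2 scale without overlap between the groups. Ndufb2 was at 8.20, 8.16 and 8.09 CPM in Control, against 7.24, 6.69 and 7.18 CPM in Cationorm, a difference of -0.21 ± 0.12.

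Complex III, the cytochrome bc1 complex, passes electrons from ubiquinol to cytochrome c. It had 8 nuclear members, 3 above 0 and 5 below, all with intervals within 1.5-fold and a median log2 fold change of -0.02. Uqcrc1, a core protein of the matrix side, was at 191.1, 184.0 and 190.8 CPM in Control, against 174.0, 206.0 and 183.2 CPM in Cationorm (log2 fold change -0.01 ± 0.08). The Rieske iron-sulphur protein Uqcrfs1 was at 57.8, 51.9 and 60.7 CPM in Control, against 56.6, 72.8 and 58.0 CPM in Cationorm. Its difference of 0.14 ± 0.11 on the log2 scale rested on Cationorm 2, and the other Cationorm libraries lay inside the Control range. Uqcrb, a small subunit at the ubiquinone site, was at 57.4, 82.6 and 55.3 CPM in Control, against 54.01, 64.97 and 53.4 CPM in Cationorm (-0.18 ± 0.17). Control 2 was the highest library for Uqcrb, as it was for Ndufb1.

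Complex IV, cytochrome c oxidase, reduces oxygen to water around a catalytic core of 3 mitochondrial subunits. Its 19 nuclear members, counting Ndufa4 and its relative Ndufa4l2 here, had a median log2 fold change of 0.01, with 11 above 0 and 8 below. The 11 widespread forms all had intervals within 1.5-fold, from -0.21 for Ndufa4 to 0.12 for Cox8a. Cox4i1, the common form of the subunit 4 that regulates the enzyme, was at 166.1, 175.0 and 162.7 CPM in Control, against 157.2, 190.5 and 159.7 CPM in Cationorm (log2 fold change 0.01 ± 0.09). Ndufa4, now counted as a subunit of complex IV, was at 198.6, 265.5 and 188.1 CPM in Control, against 176.0, 191.1 and 195.8 CPM in Cationorm (-0.21 ± 0.13, adjusted p = 0.588), again with Control 2 the highest and a log2 fold change of -0.061 without it. Cox7a2l, a related protein, was at 165 ± 14.8 CPM in Control, against 160 ± 6.46 CPM in Cationorm (mean ± SD, n = 3 per group).

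The forms of complex IV with restricted tissue expression had wide intervals. None of the 6 tested (Cox4i2, Cox6a2, Cox6b2, Cox7a1, Cox8b and Ndufa4l2) had an interval within 1.5-fold, against 53.0% of all genes, and 5 of the 6 were above 0. Cox6a2, a form enriched in striated muscle, was at 11.3, 1.85 and 16.6 CPM across Control 1 to 3, against 0.762, 29.5 and 9.23 CPM in Cationorm 1 to 3. Cationorm 1 and Control 2 were the lowest libraries, Cationorm 2 was the highest, and the log2 fold change was 0.41 ± 1.11. Cox7a1, which is also enriched in muscle, was at 4.28, 0.981 and 4.90 CPM in Control, against 1.68, 9.18 and 3.09 CPM in Cationorm (0.46 ± 0.73), with the same libraries at the ends. Cox8b, the third muscle form, was at 6.43, 5.42 and 10.3 CPM in Control, against 6.19, 15.8 and 8.88 CPM in Cationorm (0.48 ± 0.38), and its fold change was 0.02 without Cationorm 2.

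Markers of skeletal muscle moved with these 3 genes. Their summed share of counts was 0.106%, 0.0213% and 0.187% in Control 1 to 3 and 0.0168%, 0.308% and 0.131% in Cationorm 1 to 3. The 2 libraries lowest in the muscle share, Cationorm 1 and Control 2, were the 2 lowest for each of the 3 genes, and the highest library, Cationorm 2, was the highest for each. All 17 tested muscle markers were above 0 between the groups (median log2 fold change 0.41), and none was called. The part of muscle tissue in these differences was not tested. Expressed as a share of the counts of the muscle form and its widespread partner, Cox6a2 made up 11.8%, 1.92% and 17.8% in Control and 0.988%, 25.7% and 10.5% in Cationorm. The 95% Wilson interval of the lowest was 0.665% to 1.47% and that of the highest 24.4% to 27.0%, and these intervals cover counting error only. The share ran from 1.78% to 13.1% for Cox7a1 and from 5.21% to 13.1% for Cox8b. The partners Cox6a1, Cox7a2 and Cox8a varied little by comparison, with values of 76.4 to 94.1, 50.3 to 60.8 and 81.0 to 104.5 CPM over all 6 libraries.

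**Figure D2:**
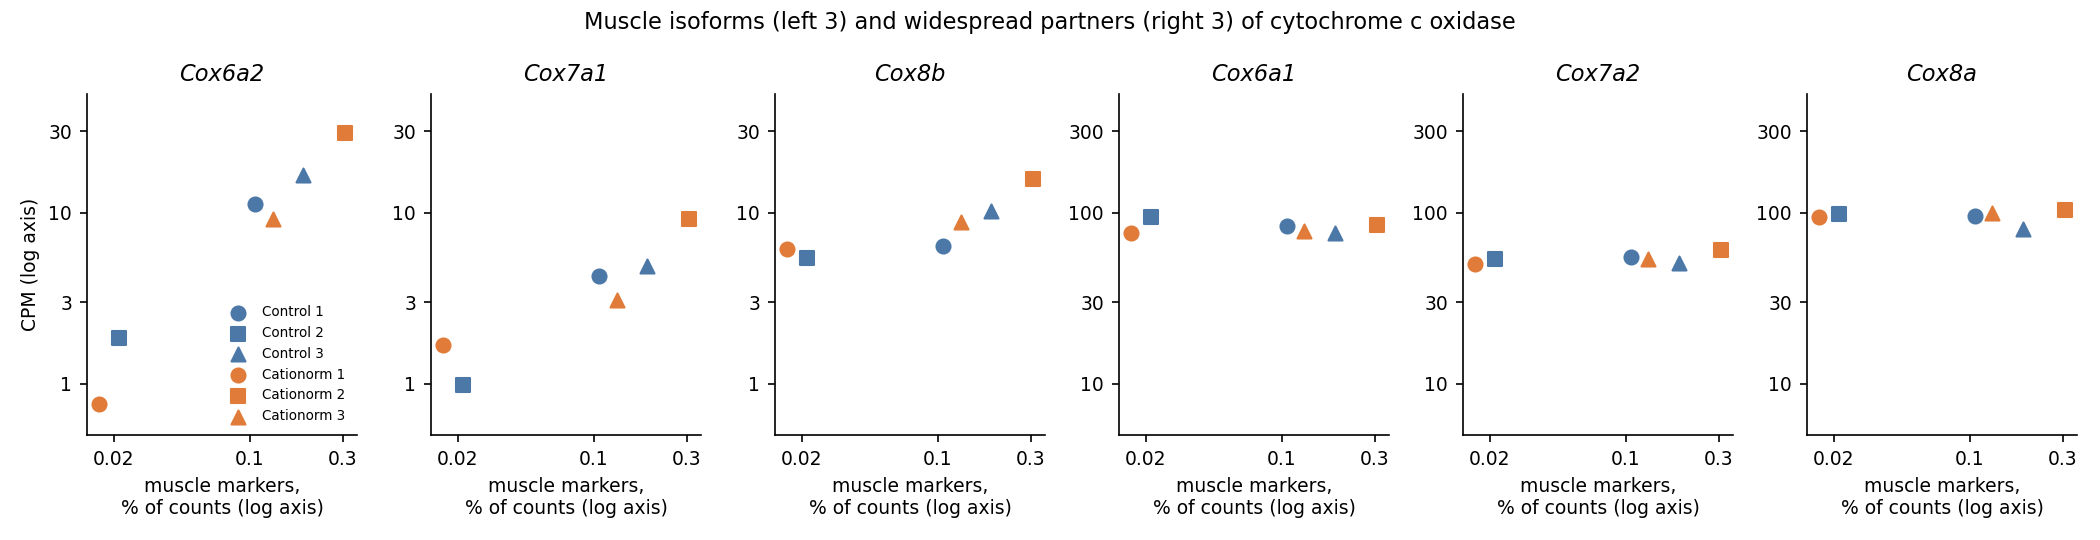
Level of the muscle forms Cox6a2, Cox7a1 and Cox8b and of their widespread partners Cox6a1, Cox7a2 and Cox8a (vertical log axis, CPM) against the share of counts in skeletal muscle markers (horizontal log axis, percent), 1 point per library. The muscle forms are highest in Cationorm 2, at a marker share of 0.308%, and the partners stay between 50.3 and 104.5 CPM.

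The other restricted forms had other library orders. Cox6b2, best known from testis, was at 4.18, 3.81 and 4.96 CPM in Control, against 6.03, 7.17 and 5.16 CPM in Cationorm. The groups did not overlap, and the log2 fold change was 0.50 ± 0.19 (adjusted p = 0.550). The pigment cell share had the same order in Control, lowest in Control 2 and highest in Control 3, and lay higher in every Cationorm library. Within Cationorm the orders differed. Cox6b2 was highest in Cationorm 2, where the pigment cell share was the lowest of that group (0.116%). The part of pigment cells in the Cox6b2 values was not tested. The Cox6b2 share of Cox6b1 and Cox6b2 counts was 4.18% ± 0.780 in Control and 5.82% ± 0.528 in Cationorm (SD, n = 3 each). Cox4i2, the form induced by low oxygen and expressed in lung and in pericytes, was at 2.53, 2.71 and 2.11 CPM in Control, against 1.49, 1.30 and 2.53 CPM in Cationorm. Cationorm 3 stood with Control, Cationorm 1 and 2 stood below it, and the log2 fold change was -0.46 ± 0.30. The photoreceptor share stood in a similar order, with 0.846%, 0.728% and 0.569% in Control and 0.270%, 0.213% and 0.699% in Cationorm, and the pericyte share did not (0.0302% to 0.0392% over all libraries). Notch3, at 235 to 283 CPM, made up most of the pericyte share. All 7 pericyte markers were above 0 (median log2 fold change 0.44), from 0.05 ± 0.08 for Notch3 to 0.80 ± 0.36 for Kcnj8. Kcnj8 did not overlap between the groups (adjusted p = 0.550), where 8.73% of all genes were higher without overlap. The parts of retinal tissue and of pericytes in the Cox4i2 values were not tested. Ndufa4l2, a relative of Ndufa4 known as a target of hypoxia-inducible factor, was at 2.95, 1.85 and 3.53 CPM in Control, against 4.38, 3.08 and 2.71 CPM in Cationorm, with overlap (0.28 ± 0.30).

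ATP synthase had 18 nuclear members, 9 above 0 and 9 below, all with intervals within 1.5-fold and a median log2 fold change of 0.01. The catalytic F1 head is built from alpha and beta subunits. The beta subunit Atp5f1b was the most abundant nuclear member, at 814.9, 809.9 and 816.7 CPM in Control, against 788.4, 913.1 and 841.8 CPM in Cationorm (log2 fold change 0.06 ± 0.07). The alpha subunit Atp5f1a was at 488.2, 448.5 and 532.4 CPM in Control, against 537.4, 630.7 and 556.8 CPM in Cationorm. The lowest Cationorm library was just above the highest Control library, and the difference of 0.23 ± 0.09 on the log2 scale did not pass the adjusted test (adjusted p = 0.550). Alpha and beta stand in equal number in the enzyme. Atp5if1, the inhibitor that holds back ATP hydrolysis, was at 14.0 ± 1.39 CPM in Control, against 14.6 ± 1.86 CPM in Cationorm. The 4 peripheral stalk genes ran from -0.10 to 0.10 on the log2 scale.

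The 3 subunit c genes, which supply the same rotor ring protein, did not share a direction. Atp5mc1 was at 58.2, 53.0 and 49.9 CPM in Control, against 55.1, 74.2 and 60.5 CPM in Cationorm (log2 fold change 0.24 ± 0.12, and 0.092 without Cationorm 2). Atp5mc2 was at 122.5, 139.0 and 106.2 CPM in Control, against 104.7, 116.9 and 98.6 CPM in Cationorm (-0.20 ± 0.11). Atp5mc3 was at 133.4, 134.0 and 129.3 CPM in Control, against 128.6, 159.6 and 129.8 CPM in Cationorm (0.08 ± 0.09). Each gene's groups overlapped on the CPM scale. Within the summed counts of the 3 genes, which cancels library size and any level they share, the groups separated for 2 of them.

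The Atp5mc1 share of subunit c counts was 18.5%, 16.3% and 17.5% in Control and 19.1%, 21.2% and 20.9% in Cationorm, a difference of 2.98 percentage points. The Atp5mc2 share was 39.01%, 42.6% and 37.2% in Control and 36.3%, 33.3% and 34.1% in Cationorm, a difference of -5.03 points. Every Cationorm library was above every Control library for Atp5mc1 and below every one for Atp5mc2, although Control 3 and Cationorm 1 were close for Atp5mc2. The Atp5mc3 share was 43.0% ± 2.15 and 45.01% ± 0.465 (SD, n = 3 each). An exact two-sided permutation test gave p = 0.1 for the Atp5mc1, Atp5mc2 and Cox6b2 shares, the smallest value that 3 against 3 can give, and 0.3 after adjustment over the 9 shares compared. The upstream runs printed above for these genes share no motif searched, and the NRF1 match of Atp5mc2 and that of Atp5mc3 lie at different places relative to the start.

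**Figure D3:**
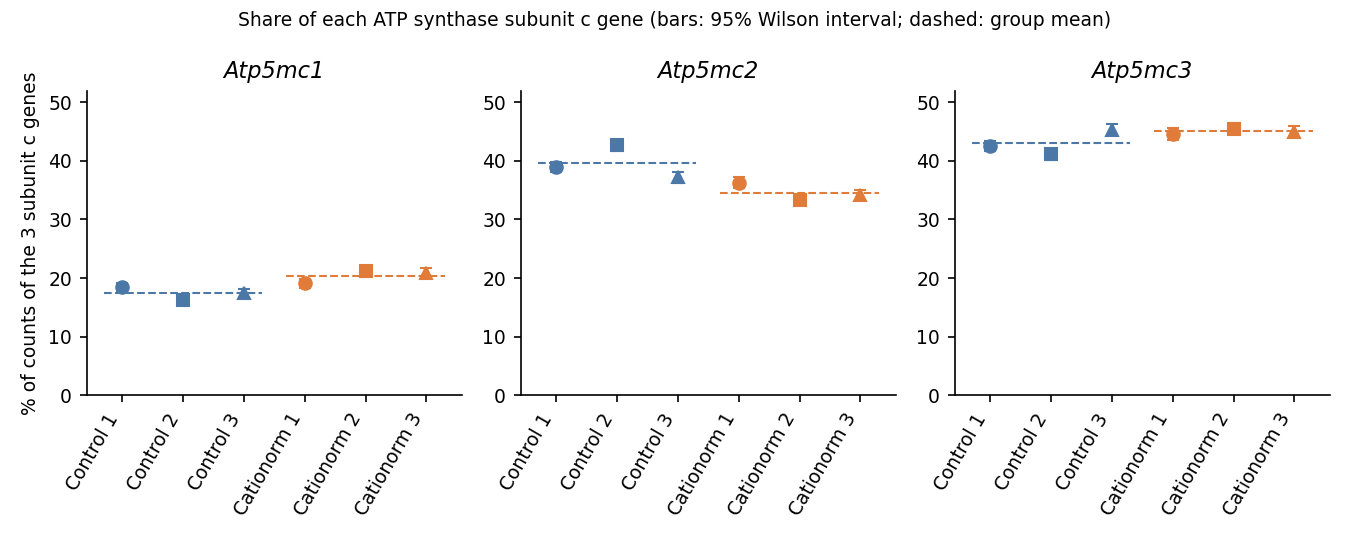
Share of each ATP synthase subunit c gene in the counts of all 3 (vertical axis, percent) by library, with 95% Wilson intervals and the group mean as a dashed line. Cationorm libraries lie above Control for Atp5mc1 (19.1% to 21.2% against 16.3% to 18.5%) and below it for Atp5mc2 (33.3% to 36.3% against 37.2% to 42.6%).

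The 13 mitochondrial genes held 1.74%, 1.88% and 2.16% of all counts in Control and 1.91%, 2.20% and 1.97% in Cationorm, more than the 87 nuclear members together (0.548% to 0.660% over all libraries). Per kilobase of transcript, the Control mean was highest for mt-Co1, the catalytic subunit of complex IV, at 3980 ± 507 CPM per kb (SD, n = 3). Cytochrome b (mt-Cytb) followed at 3286 ± 272 and the complex I subunit mt-Nd1 at 2513 ± 285 CPM per kb. Next came mt-Nd2 at 1315 ± 126 and mt-Nd4 at 1166 ± 137 CPM per kb, whose values overlap within their SD. Below them, mt-Nd5 at 968 ± 185 and mt-Co2 at 933 ± 74.3 CPM per kb were also within their spread of each other. Further down stood mt-Co3 at 702 ± 82.2, mt-Atp6 at 637 ± 63.2 and mt-Nd6, the subunit read from the other strand of the mitochondrial DNA, at 542 ± 114 CPM per kb.

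The 3 shortest genes were the lowest, with mt-Nd4l at 176 ± 27.5, mt-Nd3 at 150 ± 39.4 and mt-Atp8 at 31.2 ± 6.996 CPM per kb. The mt-Atp8 and mt-Atp6 reading frames overlap on a shared transcript, as do those of mt-Nd4l and mt-Nd4, and how reads in overlaps were counted is not given in the sources used here. Levels within such a pair are therefore uncertain. For scale, the beta subunit Atp5f1b, highest of the nuclear members with a length, was at 425 ± 1.83 CPM per kb in Control.

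Between the groups, mt-Co1 was at 5502, 5925 and 7019 CPM in Control, against 6959, 8299 and 7113 CPM in Cationorm. Control 3 lay among the Cationorm values, and the log2 fold change was 0.28 ± 0.11 (adjusted p = 0.550). The other core subunits of complex IV differed by -0.00 ± 0.08 (mt-Co2) and -0.02 ± 0.12 (mt-Co3). Of the complex I subunits, mt-Nd1, mt-Nd2, mt-Nd4, mt-Nd4l, mt-Nd5 and mt-Nd6 ran from -0.07 to 0.09, and mt-Cytb was at -0.01 ± 0.08. For these 9 genes the intervals lay within 1.5-fold.

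mt-Atp8, a small membrane subunit of ATP synthase, was at 5.20, 7.96 and 5.95 CPM in Control, against 4.28, 3.56 and 4.87 CPM in Cationorm. All Cationorm libraries were below all Control libraries, with a log2 fold change of -0.59 ± 0.22 (adjusted p = 0.550). mt-Atp6, the proton channel subunit on the same transcript, was at 386.7, 470.8 and 444.7 CPM in Control, against 399.5, 445.7 and 396.8 CPM in Cationorm (-0.07 ± 0.09). mt-Nd3, a complex I core subunit, was at 42.2, 67.8 and 46.4 CPM in Control, against 37.1, 46.4 and 33.9 CPM in Cationorm, with Control 2 the highest and overlap between the groups (-0.41 ± 0.20, adjusted p = 0.550, and -0.20 without Control 2).

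These 2 genes are among the shortest in the set. Over the 13 mitochondrial genes the fold change went with the log of transcript length (Pearson r = 0.79, Spearman rho = 0.72), although mt-Nd4l, at 297 nucleotides, was at 0.02 ± 0.11. The points share their libraries and their precursor RNAs, so this is a description across genes. Over the 75 nuclear members with a length r was 0.12 and rho 0.28, and over the 72 of these with a mean of at least 5 CPM r was 0.17 and rho 0.33. Over the 11341 genes with a length and a mean of at least 5 CPM (94.1% of such genes) r was 0.04 and rho 0.11. In that larger set the median log2 fold change went from -0.05 for 425 genes of 500 to below 1000 nucleotides to 0.03 for 7659 genes of 2500 or more. The 46 members of 500 to below 1000 nucleotides had a median of -0.02, the 14 members of 1500 to below 2500 nucleotides one of 0.05, and the 4 members of 2500 or more one of 0.23. These 4 were Atp5mc1 (4715 nucleotides, 0.24), Ndufb2 (4371, -0.21), Atp5f1a (2674, 0.23) and Ndufs1 (2661, 0.22), so Ndufb2 went the other way. Each length is that of the longest annotated coding transcript, which may not be the one expressed here. The part of transcript length in the mt-Atp8, mt-Nd3, Atp5f1a and Atp5mc1 values was not tested.

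**Figure D4:**
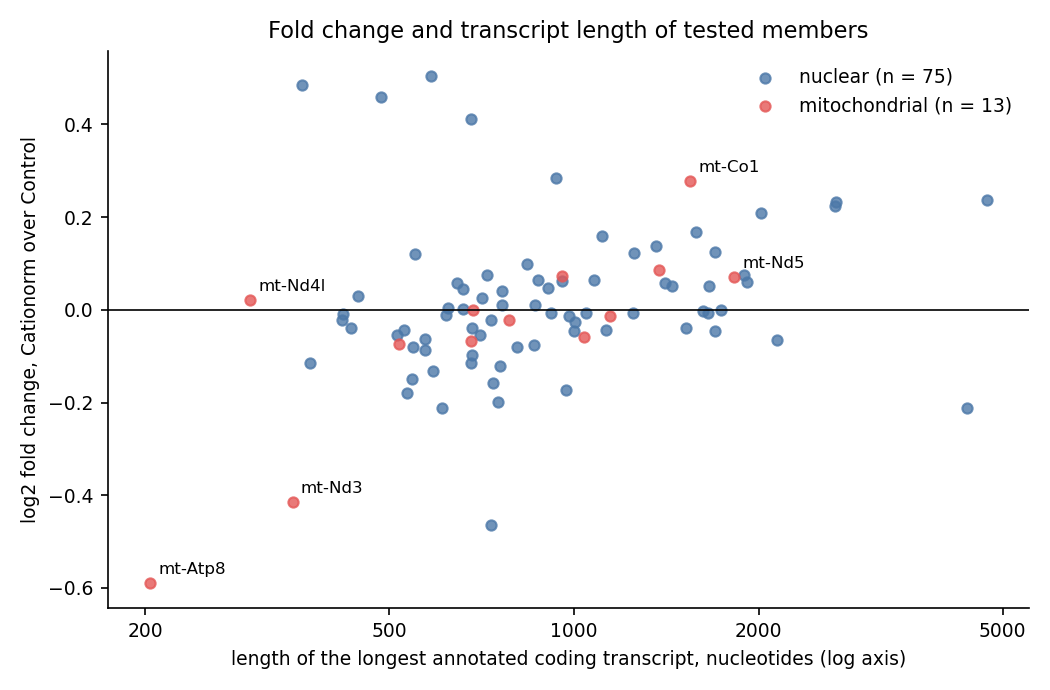
Log2 fold change of Cationorm over Control (vertical axis) against transcript length in nucleotides (horizontal log axis) for 75 nuclear and 13 mitochondrial members, 1 point per gene. mt-Atp8 (-0.59) and mt-Nd3 (-0.41) lie low at the short end, and mt-Co1 (0.28) lies high near the long end of the mitochondrial genes.

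The larger pattern in the nuclear members was between libraries of a group and not between the groups. Of 84 nuclear members, 55 (65.5%) had their highest level in Cationorm 2, against 18.0% of all genes tested and 20.1% of genes with a mean of at least 5 CPM. In Cationorm 1, 47 (56.0%) had their lowest level, against 15.3% and 12.8%. Each complex had this order. Cationorm 2 was highest for 26 of 39 complex I, 6 of 8 complex III, 12 of 19 complex IV and 11 of 18 ATP synthase genes, and Cationorm 1 was lowest for 21, 5, 11 and 10 of them. The median over nuclear members of the log2 level minus the gene's own mean was 0.02, 0.04 and -0.04 in Control 1 to 3, and -0.11, 0.15 and -0.05 in Cationorm 1 to 3. The Control libraries lay between these 2 Cationorm libraries. The high level in Cationorm 2 was not particular to the members. Cationorm 2 was also highest for all subunits of complex II and for every TCA cycle gene listed except Dld and Suclg2. Other genes that serve the chain did not all share it, with Sdhaf3 highest in Control 2 and Tfam in Cationorm 1.

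Summed over nuclear members, the share of counts was 0.617%, 0.610% and 0.600% in Control (0.609% ± 0.00843) and 0.548%, 0.660% and 0.603% in Cationorm (0.604% ± 0.0559, SD, n = 3 each). The order was kept in separate sums for complex I (0.136% in Cationorm 1, 0.166% in Cationorm 2), complex III, complex IV and ATP synthase (0.248% and 0.295%). Under other scalings, added after seeing the data, between 48 and 55 nuclear members were highest in Cationorm 2 and between 47 and 56 were lowest in Cationorm 1. The median log2 fold change of nuclear members was -0.12 without Cationorm 2 and 0.05 without Cationorm 1.

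Other measures moved with these 2 libraries. Cationorm 1 had the fewest counts (32486043) and the largest share of mitochondrial ribosomal RNA, 0.166% against 0.0772% to 0.0990% in the others. Cationorm 2 had the largest skeletal muscle share (0.308%), and Cationorm 1 the smallest (0.0168%). Control 2, close to Cationorm 1 in muscle share at 0.0213%, was not low in nuclear members. The part of these measures in the order of the libraries was not tested. The mitochondrial members had another order, with Control 1 lowest for 9 of 13 and Control 3 highest for 5, Control 2 for 4 and Cationorm 2 for 4.

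**Figure D5:**
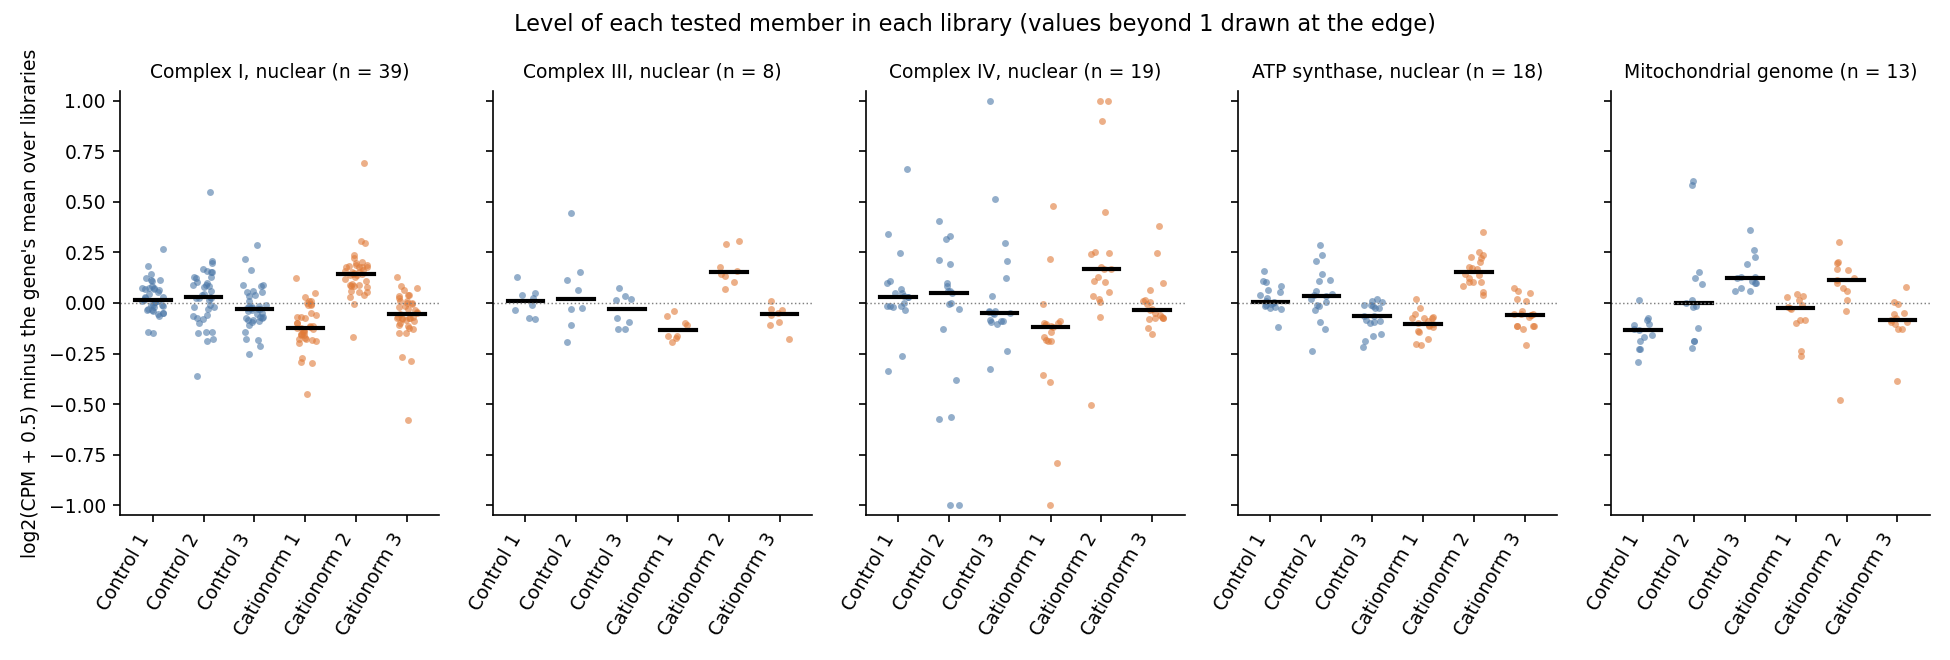
Level of each tested member as log2(CPM + 0.5) minus that gene's mean over libraries (vertical axis) by library, in 1 panel for each complex and 1 for the mitochondrial genome; points are genes, black bars are medians. In the nuclear panels Cationorm 2 stands highest and Cationorm 1 lowest, and in the mitochondrial panel Control 1 stands lowest.

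Genes that serve the chain without being among the members were read from lists of the pathway. Of 173 tested genes in these lists, 0 were called (0% of all genes), 6 were higher and 5 lower at an unadjusted p under 0.05 (5.16% and 3.57% of all genes), and 156 had an interval within 1.5-fold. The 4 subunits of complex II, succinate dehydrogenase, were all above 0, and the groups overlapped for each. Log2 fold changes were 0.17 ± 0.09 for the flavoprotein Sdha, 0.11 ± 0.11 for Sdhb, 0.20 ± 0.13 for Sdhc and 0.11 ± 0.08 for Sdhd. Cationorm 2 was the highest library for each of the 4. Sdhb was at 70.1, 69.2 and 72.6 CPM in Control, against 67.9, 89.0 and 71.2 CPM in Cationorm. In the TCA cycle, which feeds complexes I and II, 12 of 14 genes were above 0 and the median was 0.12. The 3 with an unadjusted p under 0.05 were Suclg2 (0.27 ± 0.09), Idh2 (0.26 ± 0.11) and Dlst (0.20 ± 0.08), each with an adjusted p of 0.550.

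Cytochrome c (Cycs) was at 33.9 ± 2.61 CPM in Control, against 32.6 ± 5.07 CPM in Cationorm. Among assembly factors, Sdhaf3 of complex II was at 6.33, 6.90 and 5.84 CPM in Control, against 4.76, 4.14 and 3.62 CPM in Cationorm, without overlap (log2 fold change -0.61 ± 0.17, adjusted p = 0.550). Ndufaf2, which helps to assemble complex I, was at -0.33 ± 0.13, and Cox15, which makes haem a for complex IV, was at 0.19 ± 0.07, both at an adjusted p of 0.550. Of 78 genes of the mitochondrial ribosome, which translates the 13 mitochondrial messages, 34 were above 0 and 44 below (median -0.03). Of 9 transcriptional regulators, 7 were below 0. The 2 above 0 were Pprc1 (0.16 ± 0.08) and Ppara (0.33 ± 0.25). Below 0, the coactivator Ppargc1a was at -0.17 ± 0.18, its relative Ppargc1b at -0.31 ± 0.26 and Nrf1 at -0.05 ± 0.08. Esrra, at -0.09 ± 0.06, was the 1 regulator without overlap between the groups, where 6.09% of all genes were lower without overlap.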

How the data were processed

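The deposited table holds the authors' raw read counts per gene symbol, with a column for each library, per the file headers. Processing notes of the submitters name DESeq2, GRCm39 and mm39 without a role. Aligner, counting tool, annotation and strand rule were not given in the sources used here. Counts were tested with edgeR 4.0.16 (TMM, filterByExpr, glmQLFit and glmQLFTest, no covariate, Benjamini-Hochberg over 18804 genes, threshold 0.05) in R 4.3.3, and the script was tested on simulated data. Levels are TMM-scaled CPM. Standard errors come from the fold change and F statistic. A count of 0 allows up to 0.0765 to 0.0923 CPM (3 counts), counting error only.

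Members and lists were chosen with earlier results of these data known. Named were all mitochondrial members, the complex IV isoform families, the subunit c genes and, for each complex at a mean of at least 5 CPM, the nuclear gene with the smallest p in each direction and the most abundant one; 1 gene named by this rule is not reported here, and other names follow the lists or were picked after their values were seen. Lengths are of the longest GENCODE coding transcript of GRCm38 (88 of 97 members). No pair of replicates agreed within sampling noise (chi-square over its degrees of freedom was at least 27.7). Alternatives were other scalings, filters, DESeq2 1.42.0, limma-voom (limma 3.58.1), a replicate block and each library left out.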

Additional observations from a re-analysis of the deposited data

How the results depend on the processing

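The count of called members was 0 in all 15 settings, and so was that of the pathway lists. The smallest adjusted p of a member ran from 0.204 (edgeR without Cationorm 3, where 350 genes of the whole table were called) to 0.862 (without Cationorm 1), and it was 0.353 in DESeq2. Leaving out 1 library moved the median log2 fold change of nuclear members between -0.12 and 0.054 and that of mitochondrial members between -0.082 and 0.063, each within the spread between libraries. Of 518 values of 37 named members under the alternatives, 478 kept their direction and 40 changed sign. The cause was not tested. With each library left out in turn, 20 members changed sign, over these log2 ranges: Atp5f1b -0.012 to 0.11, Atp5mc3 -0.048 to 0.13, Cox4i1 -0.099 to 0.060, Cox6a2 -0.98 to 0.997, Cox6b1 -0.12 to 0.043, Cox7a1 -0.51 to 0.86, Cox7a2 -0.048 to 0.10, Cox7a2l -0.13 to 0.0077, Cox7b -0.13 to 0.012, mt-Co2 -0.074 to 0.063, mt-Co3 -0.15 to 0.038, mt-Cytb -0.084 to 0.050, mt-Nd1 -0.014 to 0.14, mt-Nd4 -0.011 to 0.17, mt-Nd4l -0.081 to 0.16, mt-Nd5 -0.036 to 0.24, mt-Nd6 -0.17 to 0.11, Uqcrb -0.29 to 0.0088, Uqcrc1 -0.094 to 0.045 and Uqcrfs1 -0.0013 to 0.20. Cox6a2 was also at -0.14 with limma-voom, and mt-Co2 at 0.000363. The other 17 named members kept their sign in every setting, with these ranges when a library was left out: Atp5f1a 0.15 to 0.30, Atp5mc1 0.092 to 0.33, Atp5mc2 -0.29 to -0.12, Cox4i2 -0.81 to -0.29, Cox6a1 -0.16 to -0.026, Cox6b2 0.36 to 0.62, Cox8a 0.040 to 0.16, Cox8b 0.023 to 0.80, mt-Atp6 -0.14 to -0.024, mt-Atp8 -0.71 to -0.41, mt-Co1 0.18 to 0.38, mt-Nd2 -0.16 to -0.0095, mt-Nd3 -0.57 to -0.20, Ndufa10 0.13 to 0.26, Ndufa4 -0.31 to -0.061, Ndufa4l2 0.043 to 0.49 and Ndufb1 -0.51 to -0.19. At low depth, the gene copies Cox6c2, Ndufs6b and Ndufb4c, with means under 1 CPM, had intervals wider than 1.5-fold.

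With the replicate number as a block, 0 members were called, the smallest adjusted p was 0.699, and 3 members had an unadjusted p under 0.05. In that fit Cox6a2 was at -0.43 and mt-Co2 at 6.92e-05. Same-numbered libraries did not deviate together (r = -0.194, -0.401 and -0.194 for numbers 1 to 3). Between libraries of different number r ran from -0.243 (Control 3 with Cationorm 1) to 0.476 (Control 3 with Cationorm 2). Whether the numbers pair the samples by a shared origin or handling was not tested.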

Other observations

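Ndufa12, an accessory subunit of complex I chosen here after its values were seen, has a pseudogene row of similar level in the table. Ndufa12 was at 25.6, 19.1 and 17.7 CPM across Control 1 to 3, against 15.4, 34.6 and 19.6 CPM in Cationorm 1 to 3. The row Ndufa12-ps was at 15.9, 21.8 and 19.1 CPM in Control, against 18.3, 5.89 and 20.8 CPM in Cationorm. The gene was highest and the pseudogene lowest in Cationorm 2. Their sum was 41.4, 40.9 and 36.9 CPM in Control, against 33.7, 40.5 and 40.4 CPM in Cationorm, a narrower range than that of either row. How reads that match both rows were assigned is not given in the sources used here, so the values of Ndufa12 alone are uncertain. Of the other 10 pseudogene rows matching the symbol rule, Cox5b-ps was the highest, at 6.22 to 9.98 CPM.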
